A study of Mus musculus with 6 samples.

Results

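The genes described here are 10 genes of skeletal and cardiac muscle, read out in the whole brain of mouse embryos. They were chosen by name, as Acta1, Actc1, Myh3, Myh8, Myh6, Myh7, Myog, Tnnt2, Tnnt3 and Ckm, and each had 1 row in a table of 53801 genes. The study compared RNA-seq read counts of 3 Bahd1-KO embryos (Bahd1-/-) with those of 3 Bahd1-WT embryos (Bahd1+/+), of the C57BL/6 strain and at the late fetal stage E16.5 (embryonic days after mating). Bahd1 encodes a protein that takes part in the formation of repressive chromatin, and the comparison asked whether its absence alters gene expression in the brain before birth. Bahd1-KO animals, obtained by crossing heterozygous parents, lack the gene in every tissue, muscle included.

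A striated muscle fibre contracts when myosin heads of the thick filament pull on actin of the thin filament, and troponin on the thin filament makes this depend on calcium. Most of these proteins exist as isoforms encoded by separate genes, and a fetal muscle passes from embryonic and perinatal isoforms to adult ones, while heart muscle keeps an overlapping set of its own. The 10 genes are best known from muscle and not from neurons or glia. In whole-tissue RNA, more muscle cells and more muscle RNA per cell cannot be told apart.

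The 6 libraries held 61724000 to 91782802 counts. Bahd1 itself had 2, 10 and 6 counts in Bahd1-KO 1, 2 and 3 against 1971, 3102 and 3470 in Bahd1-WT 1, 2 and 3, so each library matched its genotype label at this gene. Bahd1-KO 3 stood apart from the other libraries. Ribosomal, mitochondrial and other untailed RNA took 49.46% of its counts, against 3.11% to 6.28% in the other 5 embryos, and the summed level of 9 neuron genes, among them Dcx and Tubb3, was 1191 CPM (counts per 1000000 counts of the library) against 6848 to 7656. Of these 9 genes, 8 were lowest in Bahd1-KO 3, while Snap25, a synaptic gene named after its values were seen, was highest there, with 622 CPM against 169.9 to 298 CPM. A list of 8 lung genes, led by the surfactant protein gene Sftpc, summed to 1069 CPM in Bahd1-KO 3, to 14.4 in Bahd1-KO 2 and to at most 2.56 in the others. Fold changes are therefore given with and without Bahd1-KO 3. The part of these differences in the muscle values was not tested.

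Several of the 10 genes are close relatives, so the coding sequences (GENCODE M21, GRCm38) were set against each other to see whether a sequenced read of 65 bases could be placed. Acta1 and Actc1 shared 86.16% of 1134 coding bases, and no stretch of identity between them was longer than 29 bases. The cardiac myosins Myh6 and Myh7, neighbours on chromosome 14, shared 91.44% of their aligned coding bases, with an identical stretch of 245 bases. The following 65 bases, the first such stretch inside 1 exon of each gene, are the same in both, at chr14:54963963-54964027 for Myh6 and chr14:54992307-54992371 for Myh7 on the minus strand, and a read from them cannot be assigned to either gene.
Myh6 and Myh7: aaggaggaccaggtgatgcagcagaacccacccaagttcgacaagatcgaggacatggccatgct
Of all 65-base words in the transcripts of Myh6, 15.6% were also found in transcripts of another gene, which was Myh7 alone, and the share was 12.1% for Myh7, 8.9% for Myh8 and 2.55% for Myh3. It was 1.05% for Acta1 and 0 for Actc1, Myog, Tnnt2, Tnnt3 and Ckm. The troponin T genes were the most distant pair, with 60.91% identity, and their most alike 65 bases, at chr1:135848814-135848878 for Tnnt2 and chr7:142511468-142511532 for Tnnt3 on the plus strand, differed at 15 positions, shown in capitals.
Tnnt2: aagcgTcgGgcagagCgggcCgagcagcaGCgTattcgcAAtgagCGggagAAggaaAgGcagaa
Tnnt3: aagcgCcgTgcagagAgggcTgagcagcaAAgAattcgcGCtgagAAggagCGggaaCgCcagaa
Counts of the 2 actins and the 2 troponins can thus be read as measurements separate from each other, and those of the myosins with less certainty. The shared words of Acta1 were those of Actb, Gm47692 and Gm8543. Actb had 39077 to 172648 counts, beside 23 to 395 for Acta1, and the part of reads from Actb in the Acta1 counts was not tested. No other gene lay on the same strand within a member except a microRNA in each of Myh3, Myh6 and Myh7, and counting was strand-specific.

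All 10 muscle genes were detected in all 6 brains, at low levels. Summed over the 10, the level was 4.15, 8.03 and 156 CPM in Bahd1-KO 1, 2 and 3 and 6.86, 8.52 and 16.1 CPM in Bahd1-WT 1, 2 and 3. Bahd1-KO 3 was far above the rest and Bahd1-WT 3 came next. The mean was 56.1 ± 86.6 CPM (SD, n = 3) in Bahd1-KO and 10.5 ± 4.94 CPM (SD, n = 3) in Bahd1-WT, and the genotypes overlapped. Without Bahd1-KO 3 the Bahd1-KO mean was 6.09 ± 2.75 CPM (SD, n = 2), below that of Bahd1-WT. Relative to the counts left after setting aside ribosomal, mitochondrial and untailed RNA, Bahd1-KO 3 reached 309 CPM against 4.41 to 16.6 CPM in the other embryos.

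**Figure D1:**
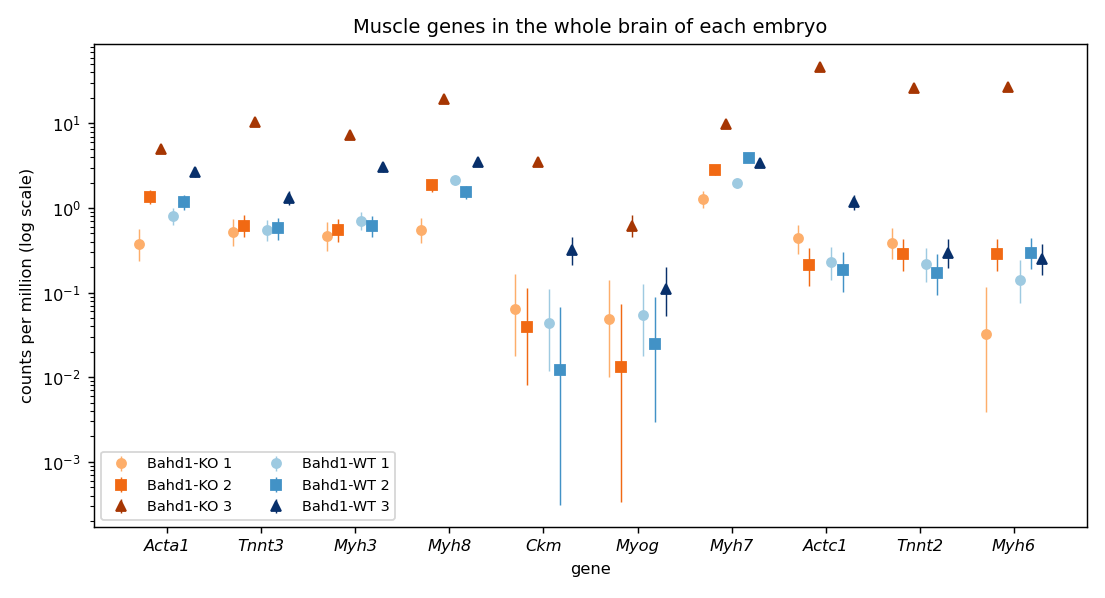
CPM (log scale) of the 10 muscle genes in each of the 6 embryos; orange symbols are Bahd1-KO, blue symbols Bahd1-WT, and bars are exact 95% Poisson intervals, which cover counting error only. Bahd1-KO 3 (dark orange triangles) is the highest embryo for every gene, and Bahd1-WT 3 (dark blue triangles) is the highest of the other 5 for 7 genes.

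In the test by genotype (edgeR's quasi-likelihood test, Benjamini-Hochberg adjusted over 24739 genes), 0 of the 10 genes passed an adjusted p of 0.05 in either direction, and 0.00404% of all genes tested did. The adjusted p of the members lay between 0.696 and 0.736. At an unadjusted p under 0.05, 3 members passed, beside 4.67% of all genes, and all 3 had the higher level in Bahd1-KO, beside 4.51% of all genes in that direction. DESeq2, which gave no p-value for 7 of the members because of an extreme count, called 0 of the other 3, beside 0.0323% of all genes, and 0 of them had an unadjusted p under 0.05, beside 5.12% of all genes. For 0 of the 10 genes did the 3 Bahd1-KO values lie apart from the 3 Bahd1-WT values, as they did for 6.71% of all genes, and for 4.47% with the higher values in Bahd1-KO. The fitted log2 fold change (Bahd1-KO over Bahd1-WT) was above 0 for all 10, beside 53.77% of all genes, with a median of 2.63 beside 0.06 over all genes. Without Bahd1-KO 3 it was above 0 for 1 of the 10, Tnnt2, the median was -0.78 beside -0.01 over all genes, and edgeR again called 0 of the 10 genes, with 0 at an unadjusted p under 0.05. In that comparison 0.0171% of all genes were called and 1.48% had an unadjusted p under 0.05. DESeq2 without Bahd1-KO 3 called 0 of the 10 genes too, beside 0.0471% of all genes, and 1 member had an unadjusted p under 0.05, beside 0.724% of all genes.

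**Figure D2:**
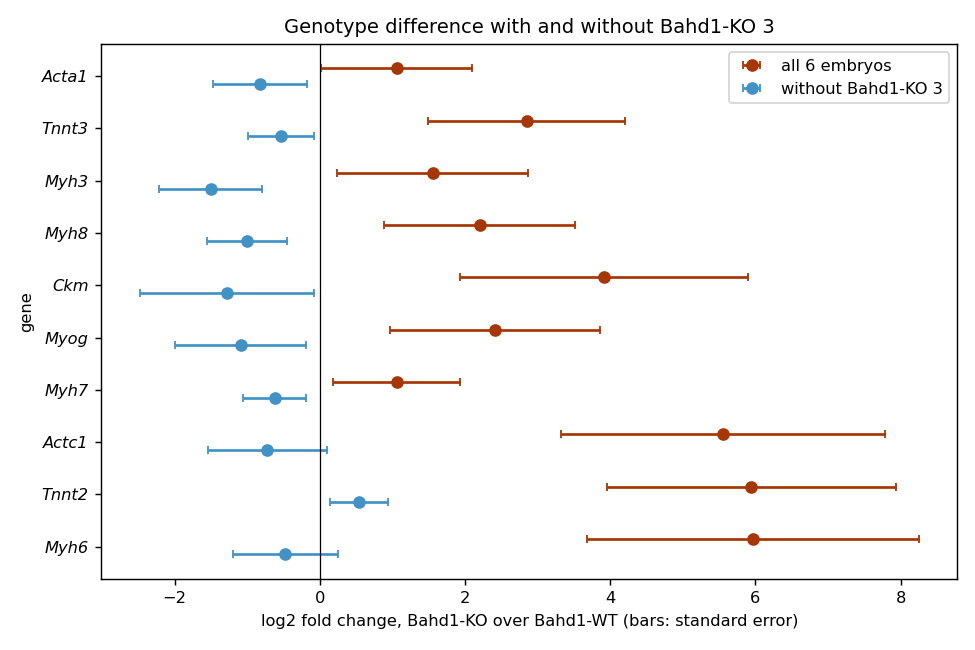
Fitted log2 fold change (x axis, Bahd1-KO over Bahd1-WT, with its standard error) of each muscle gene (y axis) with all 6 embryos and without Bahd1-KO 3. With all 6 embryos every value is above 0, and without Bahd1-KO 3 only that of Tnnt2 is.

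The widest differences lay between single embryos. Bahd1-KO 3 was the highest embryo for 10 of 10 members, as it was for 25.9% of all genes tested, and it exceeded the next embryo by over 2 times for 9 of 10, as for 14.83% of all genes. Among the other 5 embryos, Bahd1-WT 3 was the highest for 7 of 10 members, as for 26.65% of all genes. These 7 were Acta1, Actc1, Myh3, Myh8, Myog, Tnnt3 and Ckm, while Myh6, Myh7 and Tnnt2 had a higher level in another of the 5.

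The thin filament actins differed from each other in how far Bahd1-KO 3 lay above the rest. Acta1, the actin of adult skeletal muscle (chr8:123891769-123894751), had 23, 104 and 395 counts (Bahd1-KO 1, 2 and 3) and 73, 95 and 245 counts (Bahd1-WT 1, 2 and 3). Both embryos numbered 3 were high, and in CPM Bahd1-KO 3 was 1.86 times Bahd1-WT 3. The log2 fold change by genotype was 1.06 ± 1.04 (SE), and -0.83 ± 0.65 without Bahd1-KO 3. Actc1, the cardiac actin that fetal skeletal muscle also makes (chr2:114047282-114053548), had 27, 16 and 3653 counts across Bahd1-KO and 21, 15 and 107 across Bahd1-WT. Bahd1-KO 3 was 39.5 times the next embryo in CPM, which was again Bahd1-WT 3. For Actc1 the log2 fold change was 5.55 ± 2.23 (SE; unadjusted p = 0.041, adjusted p = 0.696, edgeR quasi-likelihood test), and -0.72 ± 0.82 without Bahd1-KO 3.

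Per kb of all exons, Acta1 made up 47.3%, 87.3% and 10.2% of the sum of both actins in Bahd1-KO 1, 2 and 3, and 78.6%, 87.0% and 70.7% in Bahd1-WT 1, 2 and 3. Skeletal actin was thus the larger part in 4 embryos and cardiac actin clearly the larger part in Bahd1-KO 3, with a Wilson 95% interval for the Acta1 share of 9.31% to 11.2%. Bahd1-KO 1 had few counts of either gene, and its interval of 34.1% to 60.9% includes equal parts. The mean Acta1 share was 48.3% ± 38.5 (SD, n = 3) among the Bahd1-KO embryos and 78.7% ± 8.14 (SD, n = 3) among the Bahd1-WT embryos.

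Promoters of 9 of the 10 genes were read from RefSeq (GRCm38.p6), 11 windows of 250 bases before and 50 bases after the start, and Tnnt3 was not among them. The promoters of both actins are shown because their counts parted between embryos, and that of Myh6 because its ratio between Bahd1-KO 3 and the next embryo was the highest of the members. Each is given from 250 bases before to 30 bases after the start, at chr8:123894746-123895025, chr2:114052846-114053125 and chr14:54966578-54966857, minus strand. Capitals mark 5 motifs, each searched on both strands. The letters CAGCTG are an E-box of the kind bound by myogenic factors. The core of the motif bound by TEAD factors, called MCAT, was searched as CATTCC. The remaining motifs were the core promoter letters TATAAA, the CArG box bound by serum response factor and the MEF2 box.
Acta1: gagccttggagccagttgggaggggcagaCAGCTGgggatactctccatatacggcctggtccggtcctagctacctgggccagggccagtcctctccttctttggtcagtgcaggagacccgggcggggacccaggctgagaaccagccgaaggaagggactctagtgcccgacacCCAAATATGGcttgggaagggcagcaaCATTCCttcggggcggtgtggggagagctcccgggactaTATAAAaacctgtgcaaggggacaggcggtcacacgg
Actc1: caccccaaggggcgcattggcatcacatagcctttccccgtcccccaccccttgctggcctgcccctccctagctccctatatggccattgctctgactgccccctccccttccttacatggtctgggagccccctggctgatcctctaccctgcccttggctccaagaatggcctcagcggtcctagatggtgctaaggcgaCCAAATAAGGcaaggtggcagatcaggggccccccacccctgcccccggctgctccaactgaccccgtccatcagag
Myh6: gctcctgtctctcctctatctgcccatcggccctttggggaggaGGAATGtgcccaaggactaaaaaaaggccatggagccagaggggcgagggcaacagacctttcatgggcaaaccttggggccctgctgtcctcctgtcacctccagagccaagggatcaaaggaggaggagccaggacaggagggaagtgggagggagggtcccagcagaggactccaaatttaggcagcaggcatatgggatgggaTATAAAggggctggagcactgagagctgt
A CArG box was found in both actin promoters, beginning 73 bases before the start in Acta1 and 47 bases before it in Actc1, and in no other member, beside 1.63% of all 32851 promoters. The Actc1 window also held TATAAA 33 bases after the start, beyond the printed stretch, and the MCAT letters of Myh6 lie on the opposite strand. CAGCTG was found in the promoters of 3 of these 9 members, Acta1, Tnnt2 and Ckm, beside 16.3% of all promoters. CATTCC was found in 4 members, beside 14.7% of all promoters, and TATAAA in 5 members, beside 13.6%. The looser E-box letters CANNTG, of which the E-box above is a special case, were found in all 9 members and in 72.3% of all promoters. The MEF2 box was found in Myh8, where it overlaps a TATAAA, and in 3.19% of all promoters. A match of letters is a description and shows no binding.

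Among the thick filament genes, the developmental skeletal myosins were seen in every embryo. Myh3, the embryonic myosin heavy chain (chr11:67078300-67102291), had 29, 42 and 581 counts (Bahd1-KO 1, 2 and 3) and 65, 50 and 276 counts (Bahd1-WT 1, 2 and 3). Myh8, the perinatal myosin heavy chain (chr11:67277124-67308634), had 34, 142 and 1536 counts across Bahd1-KO and 197, 126 and 320 across Bahd1-WT. Both genes were highest in Bahd1-KO 3 and next in Bahd1-WT 3, and both were lowest in Bahd1-KO 1. In CPM, Bahd1-KO 3 was 2.43 times Bahd1-WT 3 for Myh3 and 5.55 times for Myh8. The log2 fold change of Myh3 by genotype was 1.55 ± 1.31 (SE), and -1.50 ± 0.71 without Bahd1-KO 3. That of Myh8 was 2.20 ± 1.31 (SE), and -1.0 ± 0.55 without Bahd1-KO 3.

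Per kb of the longest protein-coding transcript, Myh3 made up 46.5%, 23.2% and 27.8% of the sum of Myh3 and Myh8 in Bahd1-KO 1, 2 and 3 and 25.2%, 28.8% and 46.8% in Bahd1-WT 1, 2 and 3. The embryonic isoform thus took a larger part in Bahd1-WT 3 (Wilson 95% interval 42.8% to 50.8%) than in Bahd1-KO 3 (26.0% to 29.8%), although the myosins of both embryos were high. The group means of 32.5% ± 12.4 and 33.6% ± 11.6 (SD, n = 3 each) were close beside that spread. The annotation of Myh8 holds exons outside its main transcript, and per kb of all exons the means were 47.1% and 48.4%.

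The cardiac myosins behaved unlike the skeletal ones. Myh6, the alpha myosin heavy chain of heart muscle (chr14:54941921-54966927), had 2, 22 and 2138 counts (Bahd1-KO 1, 2 and 3) and 13, 24 and 23 counts (Bahd1-WT 1, 2 and 3). Bahd1-KO 3 was 92.1 times the next embryo in CPM, the highest ratio of the 10 genes, and Bahd1-WT 3 lay within the range of the other embryos. The log2 fold change was 5.96 ± 2.28 (SE; unadjusted p = 0.034, adjusted p = 0.696, edgeR quasi-likelihood test), and -0.48 ± 0.72 without Bahd1-KO 3. Myh7, the beta myosin heavy chain of heart and of slow skeletal fibres (chr14:54970684-54994626), had 78, 215 and 772 counts across Bahd1-KO and 182, 321 and 314 across Bahd1-WT. In CPM it was 2.49 times the next embryo in Bahd1-KO 3, and here the next embryo was Bahd1-WT 2. The log2 fold change of Myh7 was 1.06 ± 0.88 (SE), and -0.62 ± 0.43 without Bahd1-KO 3.

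Per kb of all exons, Myh6 made up 3.18%, 11.6% and 78.0% of the sum of Myh6 and Myh7 in Bahd1-KO 1, 2 and 3 and 8.38%, 8.74% and 8.58% in Bahd1-WT 1, 2 and 3. The 3 Bahd1-WT embryos were alike, with a mean of 8.57% ± 0.18 (SD, n = 3), and Bahd1-KO 3 was the embryo with more alpha than beta chain (Wilson 95% interval 76.6% to 79.4%). Intervals cover counting error only, since reads were not marked by molecule.

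**Figure D3:**
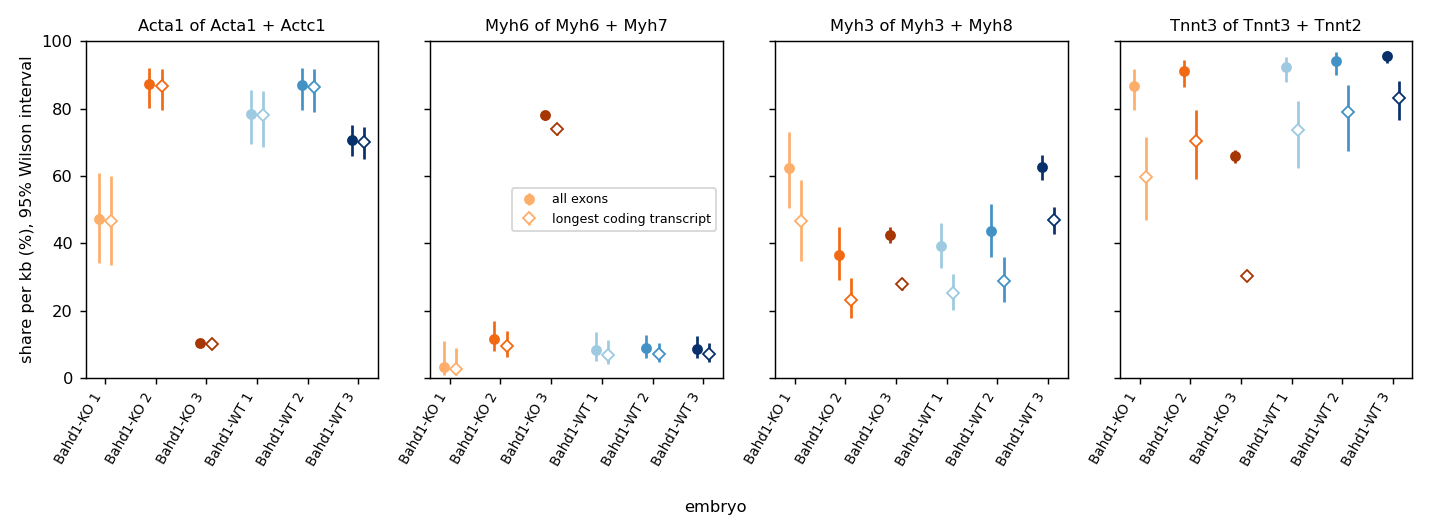
Share (%) of 1 gene in the sum of 2 related genes per kb in each embryo, per kb of all exons (filled circles) and of the longest protein-coding transcript (open diamonds), with Wilson 95% intervals; orange is Bahd1-KO and blue is Bahd1-WT. Bahd1-KO 3 lies apart in the actin, cardiac myosin and troponin T pairs, and Bahd1-KO 1 and Bahd1-WT 3 have the highest Myh3 share.

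The troponin T genes, which anchor the troponin complex to tropomyosin, parted in Bahd1-KO 3 in the same way as the actins. Bahd1-WT 3 differed in this, with Actc1 at 2.68 times the highest of the embryos numbered 1 and 2 in CPM, and Tnnt2 at 0.76 times. Tnnt2, the cardiac form that fetal skeletal muscle also makes (chr1:135836354-135852260), had 24, 22 and 2090 counts (Bahd1-KO 1, 2 and 3) and 20, 14 and 27 counts (Bahd1-WT 1, 2 and 3). In CPM it was 68.1 times the next embryo in Bahd1-KO 3, and the other 5 lay between 0.172 and 0.389 CPM. Its log2 fold change was 5.94 ± 1.99 (SE; unadjusted p = 0.0198, adjusted p = 0.696, edgeR quasi-likelihood test), and 0.54 ± 0.40 without Bahd1-KO 3. Tnnt3, the fast skeletal form (chr7:142498836-142516009), had 32, 47 and 821 counts across Bahd1-KO and 50, 47 and 121 across Bahd1-WT. Bahd1-KO 3 was 7.85 times Bahd1-WT 3 in CPM, and Bahd1-WT 3 was 2.16 times the highest of the embryos numbered 1 and 2. The log2 fold change of Tnnt3 was 2.85 ± 1.35 (SE), and -0.53 ± 0.45 without Bahd1-KO 3.

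Per kb of the longest protein-coding transcript, Tnnt3 made up 59.7%, 70.4% and 30.4% of the sum of both troponins T in Bahd1-KO 1, 2 and 3 and 73.6%, 78.9% and 83.3% in Bahd1-WT 1, 2 and 3. Here the fast skeletal form was the smaller part in Bahd1-KO 3 alone. This order depended on the length used, because the annotation gives Tnnt2 many bases of exon outside its coding transcripts. Per kb of all exons the Tnnt3 share of Bahd1-KO 3 was 65.8%, still the lowest of the 6 embryos, and the others lay between 86.7% and 95.6%.

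The last pair of members are a regulator and an enzyme of skeletal muscle. Myog, or myogenin, the transcription factor that drives myoblasts to differentiate (chr1:134289989-134292548), had 3, 1 and 49 counts (Bahd1-KO 1, 2 and 3) and 5, 2 and 10 counts (Bahd1-WT 1, 2 and 3). It was the member with the fewest counts, and among the 5 embryos besides Bahd1-KO 3 the exact 95% Poisson intervals overlapped. Its log2 fold change was 2.41 ± 1.45 (SE), and -1.09 ± 0.91 without Bahd1-KO 3. Ckm, the muscle creatine kinase that buffers ATP in the fibre (chr7:19404776-19422841), had 4, 3 and 279 counts across Bahd1-KO and 4, 1 and 29 across Bahd1-WT. Bahd1-KO 3 was 11.1 times Bahd1-WT 3 in CPM, and Bahd1-WT 3 was 4.90 times the highest of the embryos numbered 1 and 2. Its log2 fold change was 3.92 ± 1.99 (SE), and -1.28 ± 1.19 without Bahd1-KO 3. Beside Ckb, the creatine kinase of brain, Ckm was at most 0.214% of the pair per kb of all exons in the 5 other embryos and 10.7% in Bahd1-KO 3. Per kb of the longest protein-coding transcript the share was 6.05% in Bahd1-KO 3 and at most 0.115% in the others.

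The levels of the 10 genes were also compared with each other, in counts per kb of the longest protein-coding transcript. Acta1 came first in Bahd1-KO 2 and in all 3 Bahd1-WT embryos, with 33.5%, 24.4%, 30.3% and 31.0% of the sum over the 10 genes. Tnnt3 held between 20.1% and 22.4% in those 4 embryos, and in Bahd1-WT 1 the order of Acta1 (73 counts) and Tnnt3 (50 counts) rested on few counts. Myh6, Myog and Ckm took the last 3 places in Bahd1-KO 1, Bahd1-KO 2, Bahd1-WT 1 and Bahd1-WT 2, and again in Bahd1-WT 3. In Bahd1-KO 1, which had 256 counts over the 10 genes, Tnnt3 came first with 26.8%, followed by Tnnt2 with 18.1% and Actc1 with 16.6%. Bahd1-KO 3 had another order. There Actc1 came first with 39.9%, followed by Tnnt2 with 28.1% and Tnnt3 with 12.3%, while Acta1 held 4.399% and Myh6 5.63%.

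**Figure D4:**
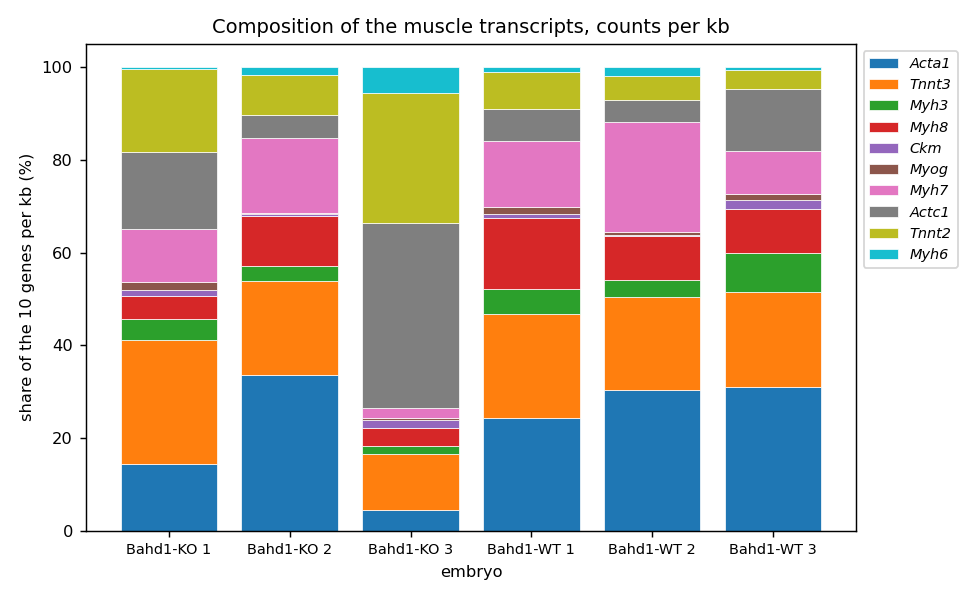
Share (%, y axis) of each muscle gene in the sum of counts per kb of the longest protein-coding transcript over the 10 genes, for each embryo (x axis). Actc1 and Tnnt2 make up most of the bar of Bahd1-KO 3, and Acta1 and Tnnt3 are the 2 largest parts in Bahd1-KO 2, Bahd1-WT 1 and Bahd1-WT 3.

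The genes whose profile over the 6 embryos was most like that of the skeletal members were muscle genes themselves. The mean centred log2 profile of Acta1, Myh3, Myh8, Myog, Tnnt3 and Ckm was set against 17918 genes with at least 100 counts, with the root mean square (RMS) difference as the measure. Mylpf, a light chain of fast skeletal myosin, was the most alike (RMS 0.17 log2 units), with 27, 52 and 619 counts in Bahd1-KO 1, 2 and 3 and 64, 37 and 180 in Bahd1-WT 1, 2 and 3. It was followed by Pgam2, the muscle phosphoglycerate mutase (0.36), Tnnc1, troponin C of slow and cardiac muscle (0.38), Atp2a1, the calcium pump of fast fibres (0.41), and Sln, the small inhibitor of that pump (0.43). The profile of Myh6 was that of 1 gene, with 2 counts in Bahd1-KO 1. The 5 genes nearest to it were AU040972, Lncpint, Gzmb, Dpep1 and Gm42768, with RMS differences of 0.37 to 0.68, and none is known as a gene of the contractile apparatus. They shared with Myh6 a high count in Bahd1-KO 3, of 159 to 1248, and at most 21 counts in any other embryo. Heart genes outside these 5 were also highest in Bahd1-KO 3, as given below. Likeness over 6 embryos, 1 of which lies far from the rest, describes these libraries.

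Other genes of muscle were read from lists made for this purpose, with the 10 genes themselves left out of every list, and 0 genes of any list passed an adjusted p of 0.05 (edgeR) in either direction. Beside the counts of each list below, 0.00404% of all genes tested were called. An unadjusted p under 0.05 (edgeR) was reached by 4.67% of all genes, and 53.77% were higher in Bahd1-KO. Of 10 genes of the fast skeletal sarcomere besides Tnnt3, 0 were called, 0 had an unadjusted p under 0.05, 8 were higher and 2 lower in Bahd1-KO. Their median log2 fold change was 2.16, and -0.52 without Bahd1-KO 3. Their summed level was 2.24, 3.26 and 24.1 CPM in Bahd1-KO 1, 2 and 3 and 2.92, 3.34 and 6.11 CPM in Bahd1-WT 1, 2 and 3, the same order of embryos numbered 3 as for the members. Myl1, the other fast light chain, had 427 counts in Bahd1-KO 3, 49 in Bahd1-WT 3 and 3 to 16 elsewhere. Actn3, the alpha-actinin of fast fibres, did not share this profile, with 33, 101 and 37 counts across Bahd1-KO and 83, 126 and 133 across Bahd1-WT.

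Of 8 genes of the slow skeletal sarcomere besides Myh7, 0 were called, 1 had an unadjusted p under 0.05 and all 8 were higher in Bahd1-KO (median log2 fold change 1.71, and -0.16 without Bahd1-KO 3). Mybpc1, slow myosin-binding protein C, had 1064 counts in Bahd1-KO 3 and 240 to 374 elsewhere. Of 10 scaffold genes of the sarcomere, 0 were called, 3 had an unadjusted p under 0.05 and 10 were higher, with a median of 3.24, and -0.02 without Bahd1-KO 3. Ttn, or titin, had 2812 counts in Bahd1-KO 3 and 96 to 197 elsewhere, whereas Neb, or nebulin, had 1166 counts there and 964 to 1735 elsewhere. Scaled by the TMM factors of the test by genotype, Neb stood at 21.61 CPM in Bahd1-KO 3 and at 11.02 to 21.58 CPM elsewhere. Of 8 genes of muscle energy metabolism besides Ckm, 0 were called, 1 had an unadjusted p under 0.05 and 8 were higher, with a median of 2.36, and -0.35 without Bahd1-KO 3. Pygm, the muscle glycogen phosphorylase, had 1029 counts in Bahd1-KO 3 and 123 to 373 elsewhere.

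Genes of excitation-contraction coupling went both ways, with 6 of 10 higher and 4 lower in Bahd1-KO, 0 called, 1 at an unadjusted p under 0.05 and a median of 0.08, and -0.10 without Bahd1-KO 3. Per total counts, their sum was lowest in Bahd1-KO 3, with 36.0 CPM against 58.0 to 77.5 CPM elsewhere. Ribosomal, mitochondrial and untailed RNA took 49.46% of the counts of that embryo. Relative to the remaining counts the sum was not lowest there. Ryr1, the calcium release channel of skeletal muscle that neurons also express, had 251 counts in Bahd1-KO 3 and 813 to 1586 elsewhere. Srl, or sarcalumenin, had 1263 counts there and 2890 to 4089 elsewhere. Srl and Ryr1 had the highest mean CPM of the list. Of its 10 genes, 4 were lowest in Bahd1-KO 3 in CPM and 3 were highest there. Among these 3, Atp2a1 had 239 counts in Bahd1-KO 3 and 9 to 40 elsewhere. At the neuromuscular junction, 4 of the 7 genes tested were higher and 3 lower, 0 were called and 1 had an unadjusted p under 0.05. The median was 0.68, and -0.17 without Bahd1-KO 3. Chrnb1, a subunit of the muscle acetylcholine receptor, had 417 counts in Bahd1-KO 3 and 48 to 91 elsewhere, while Dok7, which activates the junction's receptor kinase, had 70 there and 122 to 439 elsewhere.

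Of 6 myogenic factors tested besides Myog, 4 were higher and 2 lower, 0 were called and 1 had an unadjusted p under 0.05. The median was 0.27, and -0.32 without Bahd1-KO 3. The sum of the list was lowest in Bahd1-KO 3, with 2.91 CPM against 7.76 to 24.1 CPM elsewhere. Pax7 and Pax3 had the highest mean CPM in it. Of the 8 genes listed besides Myog, 5 were highest in Bahd1-KO 3, most of them with few counts, and 2 were lowest there. The 2 lower ones were Pax3 and Pax7, which mark muscle precursors and also the dorsal neural tube and midbrain. Pax7 had 255, 1142 and 26 counts (Bahd1-KO 1, 2 and 3) and 1138, 922 and 1485 counts (Bahd1-WT 1, 2 and 3). It was thus lowest in the embryo in which Myog was highest.

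**Figure D5:**
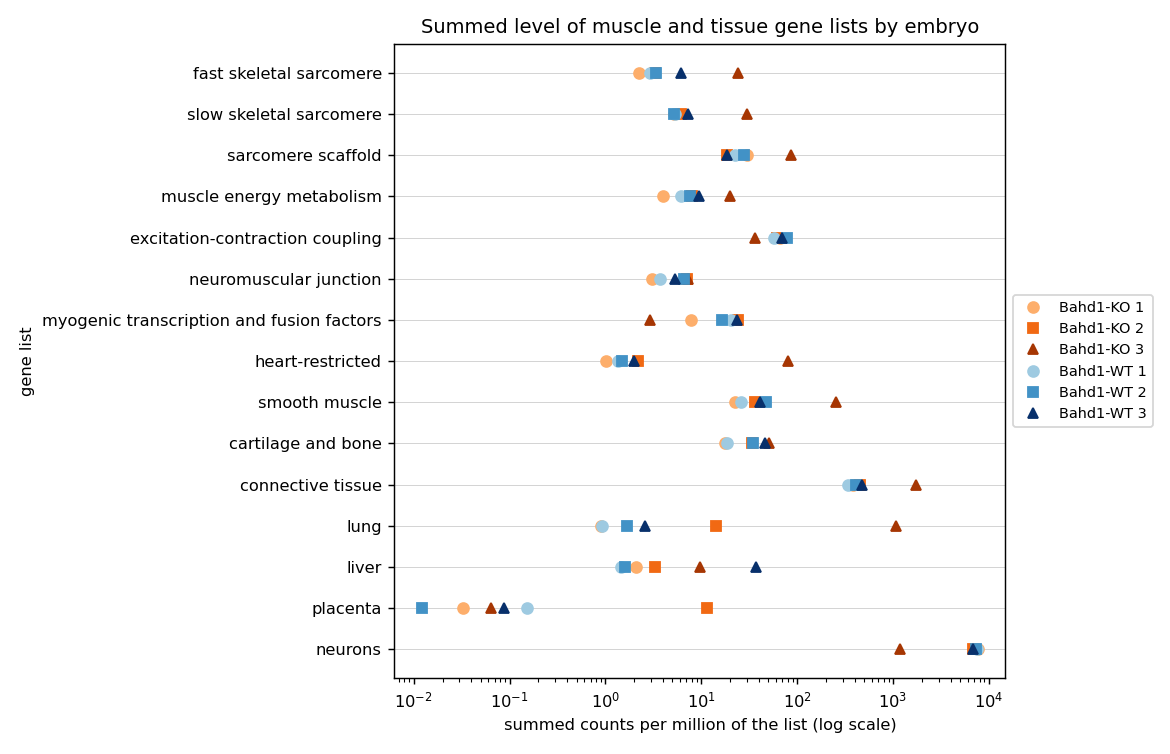
Summed level (x axis, CPM, log scale) of muscle lists and of lists of other tissues (y axis) in each embryo, with the 10 members left out; orange is Bahd1-KO and blue is Bahd1-WT. Bahd1-KO 3 has the highest sum in all but 5 lists and the lowest in the excitation-contraction coupling, myogenic and neuron lists, Bahd1-WT 3 has the highest in the liver list and Bahd1-KO 2 in the placenta list. CPM are per total counts, of which ribosomal, mitochondrial and untailed RNA took 49.46% in Bahd1-KO 3. Relative to the remaining counts, its excitation-contraction coupling sum is not the lowest. Srl and Ryr1 have the highest mean CPM of that list, and Pax7 and Pax3 that of the myogenic list.

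Heart and smooth muscle genes were set beside the members because Myh6, Actc1 and Tnnt2 are heart genes too. All 11 genes of the heart list besides Myh6 had their highest level in Bahd1-KO 3, some of them with few counts. Their sum was 80.6 CPM there and 1.02 to 2.17 CPM in the other embryos. Of the 9 that could be tested, 0 were called, 5 had an unadjusted p under 0.05 and 9 were higher in Bahd1-KO. Their median log2 fold change was 4.22, and -0.14 without Bahd1-KO 3. Tbx5, a transcription factor of the heart that is also found in forelimb and lung mesenchyme, led the list with 3687 counts in Bahd1-KO 3 and 2 to 10 elsewhere. Its 46.7 CPM in Bahd1-KO 3 made up the larger part of the sum. Myl7, the atrial myosin light chain, had 890 counts there and 1 to 5 elsewhere, and Tbx20, a further heart factor, had 813 there and 6 to 61 elsewhere. Of 9 smooth muscle genes, 8 were highest in Bahd1-KO 3, where they summed to 253 CPM against 22.8 to 47.1 elsewhere. Their median log2 fold change was 2.67, and -0.26 without Bahd1-KO 3, with 0 called and 3 at an unadjusted p under 0.05. Acta2, the smooth muscle actin, had 6979 counts there and 256 to 858 elsewhere, and Myh11, the smooth muscle myosin, had 4880 there and 139 to 296 elsewhere. 

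In Bahd1-WT 3, where 7 of the members were next highest, the heart list without Myh6 stood at 2.005 CPM and the smooth muscle list at 40.6 CPM, within the range of Bahd1-KO 2, Bahd1-WT 1 and Bahd1-WT 2. Per total counts, its cartilage and bone list summed to 46.0 CPM, beside 50.8 CPM in Bahd1-KO 3 and 17.7 to 34.4 CPM in the remaining 4 embryos. Its liver list summed to 37.4 CPM, beside 9.73 CPM in Bahd1-KO 3 and 1.47 to 3.27 CPM in the remaining 4. Connective tissue genes summed to 1754 CPM in Bahd1-KO 3 and 342 to 480 CPM elsewhere. The 8 skin genes summed to 15.97 to 19.5 CPM per total counts in all 6 embryos. This sum joined genes that went opposite ways, since 2 of the 8 were highest in Bahd1-KO 3 and 4 were lowest there. In the library totals, ribosomal, mitochondrial and untailed RNA took 49.46% in Bahd1-KO 3 and 3.11% in Bahd1-WT 3. Relative to the remaining counts, the cartilage, bone and skin sums lay higher in Bahd1-KO 3 than these values show. Blood genes, led by Hbb-bs, were highest in Bahd1-KO 2, with 653 CPM against 137 to 554 CPM elsewhere, and the 6 placenta genes summed to 11.6 CPM in Bahd1-KO 2 and to at most 0.153 CPM elsewhere. The non-muscle relatives of the members, such as Actb and Myh10, were abundant in every brain, at 1170 to 3272 CPM. Per total counts they were lowest in Bahd1-KO 3, but this order depended on the total used. They summed to 92338 counts in Bahd1-KO 3 and 91008 in Bahd1-KO 1, where untailed RNA took 49.46% and 6.01% of the library. Relative to the remaining counts, Bahd1-KO 3 was not the lowest. The part of these other tissues in the muscle values was not tested.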

How the data were processed

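Per the labels and the study's methods, polyadenylated RNA of whole E16.5 brains was sequenced with a strand-specific kit. The authors trimmed reads with cutadapt 1.11, aligned them to GRCm38 with STAR 2.5.0a (per the submitters' processing notes) and counted them per gene with featureCounts 1.4.6-p3, and deposited raw counts without a filter on low counts. Gene lengths came from GENCODE M21, which matched 53706 of 53801 genes (99.82%), and promoters from RefSeq. Protein sequences were not used here.

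The test by genotype took the 24739 genes that reached 10 counts in the 6 libraries together, and used edgeR 4.0.16 (quasi-likelihood test, TMM factors, two-sided), with Benjamini-Hochberg adjustment over all genes and a threshold of 0.05. The fits were tested on simulated data. Alternatives were DESeq2 1.42.0, voom with quality weights (limma 3.58.1, R 4.3.3), other filters and scalings, a replicate block and leaving out embryos. CPM are counts per 1000000 of the library total, which was 61724000 to 91782802 counts, and the precision of low genes is set by their own counts. Embryos are the replicates, and nothing given here says whether they shared a litter.

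The 10 members and all gene lists were chosen with earlier results of these data known. Named genes were Bahd1, the members, up to 4 genes of each list with the highest mean CPM, the genes compared in pairs, and the 5 genes with at least 100 counts nearest in centred log2 profile (pseudocount 0.5) to the skeletal members and to Myh6. A gene that this rule names and a stretch of sequence are not reported here.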

Additional observations from a re-analysis of the deposited data

How the results depend on the processing

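The count of members past the adjusted threshold was 0 of those tested in all 17 alternatives, and 32 of 168 recomputed member fold changes turned below 0. All 32 came from fits without Bahd1-KO replicate 3 or from voom with quality weights, and the sign of 9 members turned when that 1 library was left out. For Actc1 and Ckm it turned back when Bahd1-WT replicate 3 was left out as well. Leaving out 1 embryo at a time gave log2 fold changes of -0.83 to 1.67 for Acta1, -0.72 to 6.84 for Actc1, -1.50 to 2.62 for Myh3, -1.0 to 2.77 for Myh8, -0.48 to 6.55 for Myh6, -0.62 to 1.55 for Myh7, -1.09 to 3.01 for Myog, -0.53 to 3.39 for Tnnt3 and -1.28 to 5.93 for Ckm, a median over the members of -0.78 to 3.17, and 0 to 4 genes called (154 to 4878 at an unadjusted p under 0.05, edgeR), the 4 without Bahd1-KO replicate 3. DESeq2 with Bahd1-KO replicate 3 left out gave -0.85 for Acta1, -0.71 for Actc1, -1.51 for Myh3, -1.02 for Myh8, -0.52 for Myh6, -0.63 for Myh7, -1.08 for Myog, -0.54 for Tnnt3, -1.27 for Ckm and a median of -0.78, with 11 genes called. Tnnt2 stayed above 0, at 0.54 in that fit and at 0.54 to 6.515 with 1 embryo left out at a time. With both replicates numbered 3 left out, an alternative added after seeing the data, the values were -0.20 for Acta1, -0.40 for Myh3, -0.65 for Myh8, -0.42 for Myh6, -0.56 for Myh7, -0.45 for Myog, -0.0085 for Tnnt3 and -0.30 for the median, with 2 genes called. Actc1, Tnnt2 and Ckm were above 0 in that fit, at 0.61, 0.76 and 0.78. With voom and quality weights the values were -0.94 for Acta1, -0.72 for Myh3, -0.88 for Myh8, -1.05 for Myh6, -0.82 for Myh7, -0.20 for Myog, -0.12 for Tnnt3 and -0.46 for the median, with 6 genes called. Actc1, Tnnt2 and Ckm were above 0 with voom too, at 0.40, 1.06 and 0.65. DESeq2 with all embryos called 8 genes, and gave no adjusted p for 7 members. Leaving out ribosomal, mitochondrial and untailed RNA genes called 0 genes (1063 at an unadjusted p under 0.05, edgeR). The median of all genes was 0.06, and 0.17 with upper-quartile factors and -0.11 with total counts, and the 10 members stayed above 0 under both.

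Whether replicate numbers pair the embryos could not be settled, since 3 embryos a genotype are too few for it. Deviations from the group means correlated at 0.31, 0.37 and -0.13 for equal numbers and -0.54 to 0.41 for unequal ones. The fit with a replicate block called 0 genes (517 at an unadjusted p under 0.05, edgeR) and 0 members. Shares moved with the length used. Per kb of the longest transcript the Myh3 share was 32.5% (Bahd1-KO) and 33.6% (Bahd1-WT), and the Bahd1-WT share was 6.94% for Myh6 and 91.0% for Tnnt3. Per kb of the longest protein-coding transcript, a length added after seeing the data, the Myh3 and Myh6 values were the same, and the Tnnt3 share was 53.5% (Bahd1-KO) and 78.6% (Bahd1-WT). A filter by group size removed 2 members from the test. With 3 embryos a genotype and 1 to 50 counts in most embryos for Myog and Ckm, small differences in these genes were not detectable.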

Other observations

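A few genes outside the rule for naming were picked after their values were seen, of the heart list (Mybpc3, Pln and Nkx2-5), the slow list (Myl2) and the fast list (Myh1 and Myh2). Mybpc3, the cardiac myosin-binding protein C, had 285 counts in Bahd1-KO 3 and at most 7 in any other embryo. Pln, or phospholamban, which restrains the calcium pump of heart muscle, had 188 counts there and 3 to 8 elsewhere. Nkx2-5, a defining transcription factor of the heart, had 3 counts in Bahd1-KO 3, 1 in Bahd1-WT 3 and 0 in the other 4 embryos. Myl2, the ventricular and slow skeletal myosin light chain, had 40 counts in Bahd1-KO 3 and 10 to 20 elsewhere, while its atrial relative Myl7 had 890. The adult fast myosin Myh1 had 171 counts in Bahd1-KO 3 and 9 to 28 elsewhere, whereas Myh2 was lowest there with 10 counts beside 20 to 42.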
